A study of Mus musculus with 12 samples.

Results

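Wild-type embryonic mouse salivary glands that had been given the solvent dimethyl sulfoxide (DMSO, 3 libraries) were compared with wild-type glands that had been given nothing (WT, 2 libraries). These are 5 of the 12 libraries of the series, and the genes compared were the autosomal protein-coding genes: 13256 of 20675 such genes had enough reads to be tested, of 52636 identifiers in all. Genes of the X and Y chromosomes and processed pseudogenes were left out. The glands came from the lower mandibles of embryos at E13.5 and were cultured for 2 days on permeable membranes at the surface of the medium, and their RNA was depleted of ribosomal RNA and sequenced. The series asked how signalling by fibroblast growth factors (FGF) shapes cell fate in these glands.

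Both groups carry the genotype label wt. DMSO glands were the vehicle controls of the FGF receptor inhibitor SU5402 and received the solvent at the dilution used for the drug. WT glands were the untreated littermate controls of a cross in which Cre recombinase under the keratin 14 promoter, which is active in epithelium, removes the Fgfr2b isoform of an FGF receptor. The labels do not say whether the WT glands carried Cre, and they name no strain, litter or colony for either group. Values are also given for HET, the 2 untreated libraries heterozygous for the deletion, for HOM, the 2 homozygous ones, and for FGFRi, 3 libraries of genotype wt with SU5402 at 2.5 µM. By Xist and Y-linked genes, DMSO 1 and DMSO 3 were female, DMSO 2, both WT and both HET libraries were male, and HOM and FGFRi were female. The solvent, the origin of the glands and, in part, the sex therefore differed together and cannot be told apart.

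Cells short of an amino acid are known to activate the kinase GCN2, which slows translation and lets the transcription factor ATF4 be made. ATF4 in turn switches on genes for amino acid uptake and synthesis, for transfer RNA charging and for feedback on itself, and it binds a composite element in their promoters. FGF ligands from the mesenchyme act on FGF receptor 2 in the epithelium of the salivary gland, and the ETS factors Etv4 and Etv5 and the Sprouty and Dusp inhibitors are its usual readouts. The epithelium forms proliferating end buds, which become acini, and ducts, which are marked by simple keratins and ion transport genes.

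Library totals of these 5 libraries ran from 6043701 counts (DMSO 1) to 18900097 (DMSO 2), with WT at 13900648 and 11001035. Between 22.1% and 30.3% of their counts fell on ribosomal RNA features, and 4.89% to 13.6% on mitochondrial genes. Levels are in CPM, a count relative to library size that the TMM method adjusts for differences in RNA composition. Because the labels do not say that libraries of a group came from separate embryos, the spread between libraries of a group may be technical. Each p-value measures that spread, pooled over the groups of all 12 libraries of the series. In bulk tissue, fewer cells of a type and less RNA per cell cannot be told apart. The 14 pan-epithelial genes summed to 2123 to 2417 CPM in the DMSO libraries and to 2245 and 2353 in WT. The mesenchymal genes summed to 2605 to 2737 CPM in DMSO and to 2818 and 2944 in WT. Of the 18 tested 0 were called, 3 had an unadjusted p under 0.05 (14.2% of all genes) and 0 were called by DESeq2. In HET they summed to more, 4407 and 4014 CPM. Against WT, 7 of the 18 were called higher in HET and 0 lower (0.898% and 0.347% of all genes). The 19 tested genes of stratified squamous epithelium stood apart in 1 library of each group, at 1007 CPM in DMSO 3 and 935 in WT 1, against 320 to 436 in the other 3 libraries.

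In all, 278 of the 13256 genes (2.1%) differed between DMSO and WT at an adjusted p under 0.05, 142 of them higher in DMSO (1.07%) and 136 lower (1.03%). At least 2-fold differences numbered 102 (0.769%), of which 57 were higher (0.43%) and 45 lower (0.339%). In 4093 genes (30.9%) the groups did not overlap. The test was edgeR's quasi-likelihood F test with Benjamini-Hochberg adjustment over all 15859 genes tested, and a gene that passed it is named as called. Every adjusted p below is from that test. HET against WT, a comparison that shares the WT libraries, gave 165 called genes (1.24%, with 0.898% higher and 0.347% lower), and FGFRi against WT gave 2912 (22%), while FGFRi against DMSO gave 3040 (22.9%). The count for DMSO against WT rested on both WT libraries: without either WT 1 or WT 2 it was 73.

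Genes of the amino acid stress response, the longest list, held the most called members by number, all of them higher in DMSO. Of 41 listed genes 40 could be tested, and 7 rose and 0 fell (17.5%, against 2.1% of all genes tested). By share called, the end bud list stood higher, at 26.3%. Trib3, Chac1, Stc2, Atf5, Aldh1l2, Sesn2 and Ddit4 rose by 1.33 to 3.33 times. Of the 40, 37 had a positive log2 change, and the list median was 0.275, against -0.0084 for all 13256 genes. In 27 of the 40 (67.5%) all 3 DMSO libraries lay above both WT libraries, which held for 14.6% of all genes, and in 0 did all lie below (16.2% of all genes).

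Trib3 (ENSMUSG00000032715), a pseudokinase that ATF4 induces and that restrains ATF4, was read at 14.2, 13.8 and 9.69 CPM in DMSO 1, 2 and 3 and at 4.17 and 3.35 CPM in WT 1 and 2. Every DMSO library was above 2 times the higher WT library. The mean of 12.5 ± 2.48 CPM (SD, n = 3) against 3.76 ± 0.583 (SD, n = 2) gave a log2 change of 1.73 ± 0.22 (SE, adjusted p = 2.55e-04). Chac1 (ENSMUSG00000027313), an enzyme that degrades glutathione, was read at 15.9, 17.2 and 10.02 CPM in DMSO and 4.98 and 4.54 in WT, again with no overlap and with DMSO 3 the lowest of its group. Its log2 change was 1.61 ± 0.24 (SE, adjusted p = 0.00154). These were the members whose call held without any 1 of the 5 libraries, at adjusted p of up to 0.0123 for Trib3 and 0.0405 for Chac1.

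The promoters of these 2 genes hold the composite element, TGATGNAA read on either strand, which is shown here with some bases on each side. It is the sequence to which ATF4 and its partners of the C/EBP family are known to bind. The stretches are from RefSeq promoter windows on GRCm38.p6, 250 bases before to 50 after the start of each gene, 5′ to 3′ on the strand of the gene, with the element in capitals.
Chac1, chr2:119351033-119351072, plus strand, element from 193 bases before the start: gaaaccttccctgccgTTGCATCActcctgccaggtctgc
Trib3, chr2:152344028-152344057, minus strand, element from base 15 after the start: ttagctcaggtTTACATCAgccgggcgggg
Asns, chr6:7693210-7693248, minus strand, element from 23 bases before the start: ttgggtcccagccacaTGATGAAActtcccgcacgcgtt
Nupr1, chr7:126625557-126625596, minus strand, element from 110 bases before the start: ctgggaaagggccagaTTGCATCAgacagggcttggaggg
Of the 41 genes of the list, 35 had a window, and 12 of these (34.3%) held the element, against 4.51% of all 27025 genes with a window and 3.97% of all 32851 windows. The list was built from known targets of ATF4, so that share describes the list. Of the 7 genes that rose, 6 had a window and 2 of them, Chac1 and Trib3, held the element. Asns and Nupr1 held it and did not pass the test.

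The other called members differed by less. Stc2, a secreted glycoprotein induced by stress, was read at 18.8, 16.6 and 19.5 CPM in DMSO and 10.5 and 11.3 in WT, a log2 change of 0.73 ± 0.13 (SE, adjusted p = 0.00539). Atf5, a transcription factor translated under the same control as ATF4, was read at 94.2, 80.4 and 82.3 against 63.6 and 59.4 CPM (log2 change 0.47 ± 0.09, adjusted p = 0.00857). In both genes the groups were separate. Aldh1l2, a mitochondrial enzyme of folate metabolism, was read at 32.3, 26.6 and 27.7 CPM in DMSO and 16.3 and 20.3 in WT (log2 change 0.66 ± 0.14, adjusted p = 0.0215). Sesn2, an inhibitor of mTORC1 that senses leucine, was read at 27.7, 25.9 and 28.9 against 19.8 and 19.7 CPM (adjusted p = 0.0270). Ddit4, another inhibitor of mTORC1, stood at 50.1, 52.2 and 53.7 against 42.3 and 35.9 CPM (adjusted p = 0.0420). All 3 genes were higher in every DMSO library than in either WT library. Each of these 5 calls was lost without WT 1 and without WT 2. That of Aldh1l2 was also lost without DMSO 1, that of Sesn2 without DMSO 1 or DMSO 3, and that of Ddit4 without any 1 of the DMSO libraries. The adjusted p reached 0.141 for Stc2, 0.175 for Atf5, 0.359 for Aldh1l2, 0.254 for Sesn2 and 0.461 for Ddit4. Without WT 1, or without WT 2, the list kept 2 called genes.

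**Figure D1:**
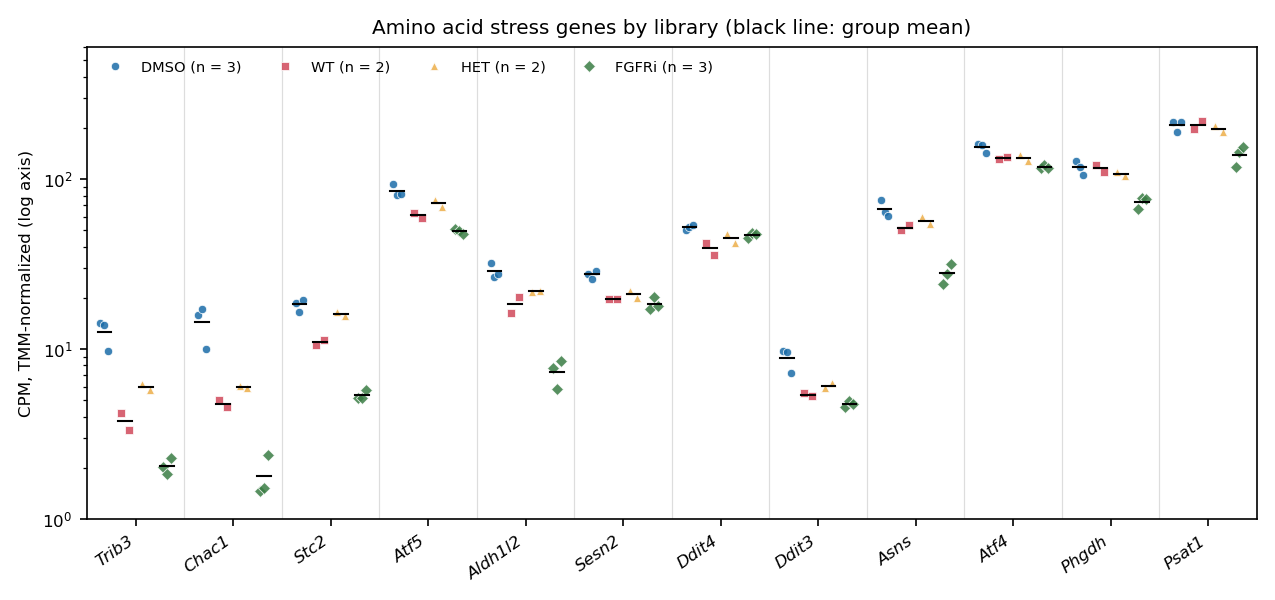
Levels of 12 amino acid stress genes in each library, in TMM-normalized CPM on a log axis, for DMSO, WT, HET and FGFRi glands, with the group mean as a black line. All 3 DMSO libraries lie above both WT libraries for the first 10 genes, from Trib3 to Atf4, while Phgdh and Psat1 overlap, and the FGFRi libraries of Trib3 lie at 1.84 to 2.27 CPM.

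Several core members of the response were not called. Ddit3, which encodes CHOP, was read at 9.71, 9.57 and 7.22 CPM in DMSO and 5.49 and 5.30 in WT, a separation that did not pass (log2 change 0.72 ± 0.19, adjusted p = 0.0573). Atf4, whose protein is controlled mainly at translation, stood at 162, 158 and 142 against 131 and 135 CPM (0.21 ± 0.08, adjusted p = 0.200). Asns, the asparagine synthetase, stood at 74.97, 64.3 and 61.1 against 49.9 and 53.5 CPM (0.37 ± 0.11, adjusted p = 0.113). For all 3, each DMSO library was above each WT library, by log2 differences of 0.21 to 0.72. The serine synthesis enzymes Phgdh and Psat1 overlapped between groups, at 128, 119 and 106 against 122 and 109.8 CPM and 217, 190.2 and 216 against 197 and 219 CPM. Their log2 differences were 0.02 ± 0.09 and -0.01 ± 0.10 (SE). Phgdh shares 47.8% of its 50-base stretches with other genes or pseudogenes, so its count is uncertain. Nupr1, a stress-induced chromatin protein, was read at 22.3, 36.99 and 32.3 against 18.3 and 17.3 CPM (0.80 ± 0.23, adjusted p = 0.0992), with no overlap. Psph, the last enzyme of serine synthesis, was read at 18.9, 17.2 and 16.3 against 14.4 and 13.9 CPM (adjusted p = 0.306).

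No amino acid transporter of the list was called. Slc1a5, a glutamine carrier, was read at 68.8, 51.6 and 50.4 CPM in DMSO and 40.9 and 37.9 in WT (log2 difference 0.52 ± 0.15, adjusted p = 0.101), with DMSO 1 the highest. The shared heavy chain Slc3a2 stood at 109, 98.9 and 98.02 against 85.5 and 86.8 CPM (adjusted p = 0.162). Its partner Slc7a5, a carrier of large neutral amino acids, overlapped at 166, 132 and 123 against 125 and 132 CPM (adjusted p = 0.662). Slc7a11, the cystine carrier, also overlapped: DMSO 1 at 3.98 CPM lay between the WT libraries, and DMSO 2 and 3 lay above both (3.98, 9.57 and 8.37 against 3.08 and 4.32, adjusted p = 0.208). Adm2, a peptide hormone, was read at 2.23, 2.29 and 3.12 CPM in DMSO and 0.293 and 0.757 in WT and just missed the threshold (adjusted p = 0.0512). Gdf15, a stress cytokine, had 31 counts in DMSO and 3 in WT, a ratio of 7.49 with an exact 95% counting interval from 2.34 to 38.3, which covers counting error only. Fgf21 had too few reads to be tested. The 33 members that were not called ran from -0.10 to 3.04 on the fitted log2 scale, the top value being that of Gdf15.

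HET glands, which were untreated and came from the same cross as WT, lay between the groups for several of these genes. Stc2 was read at 16.4 and 15.6 CPM in HET and Atf5 at 75.8 and 68.9, while Trib3 and Chac1 stood at 6.21 and 5.71 and 6.06 and 5.87, nearer to WT. In 28 of the 40 members the HET mean was above the WT mean. The list median of HET against WT was 0.12, against -0.0094 for all genes. With HET in place of WT, DMSO was higher by 1.09 for Trib3 (adjusted p = 0.00409) and 1.29 for Chac1 (adjusted p = 0.00302). For Stc2 and Atf5 the differences from HET were 0.18 and 0.24 (adjusted p = 0.424 and 0.114).

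FGFRi glands had a mean below the WT mean in 34 of the 40 members. The same held for 20 of 20 tRNA synthetases, 20 of 20 mitosis genes and 12 of 32 duct genes, so it was not particular to this list. Against WT, 10 of 14 pan-epithelial genes were called lower in FGFRi and 0 higher, and 17 of 18 mesenchymal genes higher and 0 lower. The part of that shift in the falls was not tested. Trib3 was read at 2.02, 1.84 and 2.27 CPM and Chac1 at 1.47, 1.51 and 2.38, below every DMSO and WT library. Against DMSO, 33 of the 40 members fell and 1, Slc7a11, rose with the inhibitor, at a median of -0.67. Of all genes 12.3% fell and 10.7% rose there, at a median of -0.0251. Against WT, 21 fell and 1 rose, at a median of -0.37 (12.3% and 9.65% of all genes, whose median was -0.0233). These comparisons share libraries with DMSO against WT and with each other. For Trib3 the log2 change with the inhibitor was -2.60 against DMSO and -0.87 against WT, for Stc2 it was -1.73 and -1.01, and for Asns -1.23 and -0.86. Sesn2 fell by 0.56 on the log2 scale against DMSO (adjusted p = 8.73e-04) and differed by -0.09 from WT (adjusted p = 0.594).

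Upstream of ATF4, the GCN2 kinase gene Eif2ak4, chosen after its values were seen, was read at 38.8, 37.3 and 39.1 CPM in DMSO and 27.9 and 27.7 in WT, a rise of 0.46 ± 0.09 (SE, adjusted p = 0.0143) with no overlap. HET stood at 35.1 and 36.4 CPM, close to DMSO. The 20 cytosolic tRNA synthetases, several of which ATF4 can induce, had a median log2 change of 0.03. Of them 2 had an unadjusted p under 0.05 (10%, against 14.2% of all genes). Vars, the synthetase for valine, fell: it was read at 182, 143 and 138 CPM in DMSO and 259 and 259 in WT, a log2 change of -0.75 ± 0.11 (SE, adjusted p = 8.89e-04). HET at 253 and 267 and HOM at 212 and 242 CPM lay nearer to WT, and FGFRi at 91.6, 102 and 103 below DMSO. The other 19 synthetases ran from -0.04 to 0.29 on the log2 scale.

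The listed genes of the unfolded protein response, which answers stress of the endoplasmic reticulum, were not called. Of 19 tested genes 0 were called by edgeR, 3 had an unadjusted p under 0.05 (15.8%, against 14.2% of all genes) and 0 were called by DESeq2, at a median of -0.01. Herpud1, a factor of protein degradation at the reticulum, was read at 37.9, 36.7 and 32.5 against 22.9 and 30.7 CPM (adjusted p = 0.114). Hspa5, the main chaperone there, overlapped at 376, 360.4 and 309 against 342 and 339 CPM. Xbp1, a transcription factor of the unfolded protein response, was lower in all 3 DMSO libraries, at 78.2, 81.01 and 70.8 against 87.8 and 92.4 CPM (adjusted p = 0.339).

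**Figure D2:**
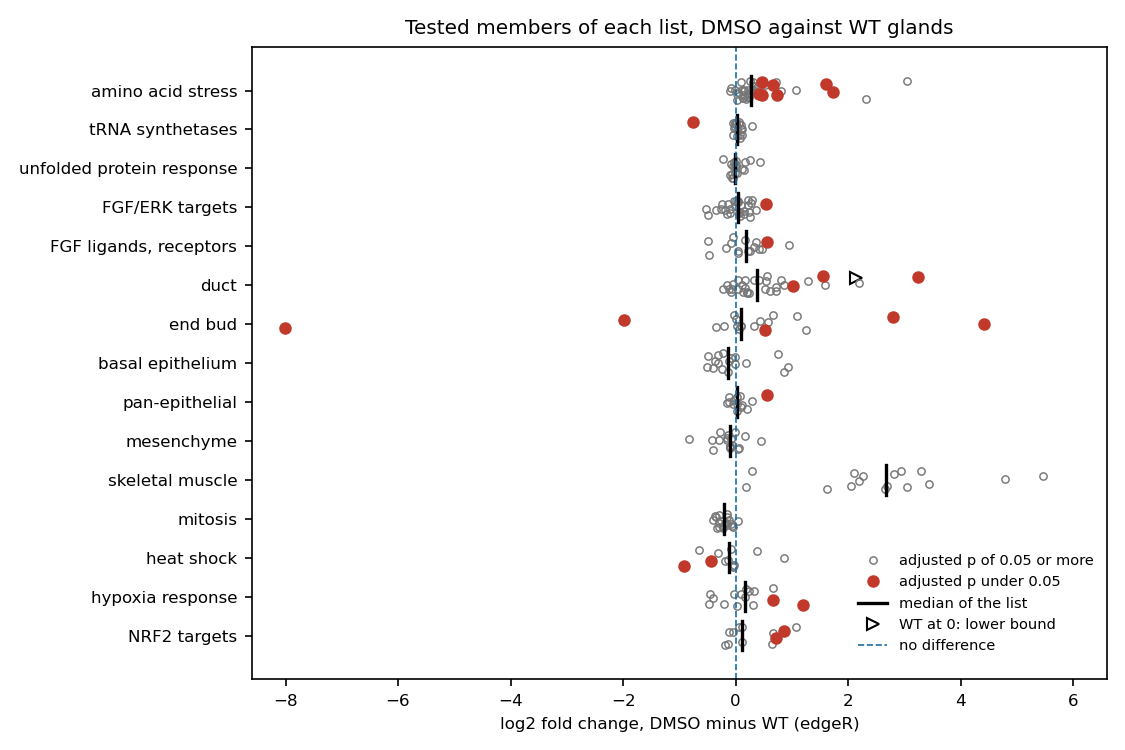
Log2 fold change of DMSO against WT for each tested member of 15 lists, with called members in red, other members as open circles, and the list median as a black bar. The amino acid stress and duct lists have medians of 0.275 and 0.378 with called members to the right only, end bud genes have called members on both sides, and the duct gene Bsnd, at 0 in WT, is drawn as a triangle at its lower bound.

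Among the targets and feedback inhibitors of FGF signalling, 1 of 29 tested genes rose and 0 fell (3.45%, against 2.1% of all genes), with a list median of 0.05. Etv4 (ENSMUSG00000017724), the ETS factor most often used as a readout, was read at 42.2, 36.5 and 36.9 CPM in DMSO and 25.1 and 27.8 in WT. The 3 DMSO libraries were above both WT libraries, and the rise was 0.54 ± 0.11 on the log2 scale (SE, adjusted p = 0.0199). The call was lost without WT 1 or without WT 2 (adjusted p of up to 0.296) and with the male DMSO library alone (adjusted p = 0.104). HET, at 26.1 and 24.8 CPM, lay with WT, and FGFRi, at 15.4, 18.9 and 15.6, below all.

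Its relatives did not pass. Etv5 overlapped between the groups at 192, 157 and 149.9 against 155 and 159 CPM (log2 difference 0.08 ± 0.11, adjusted p = 0.816), with DMSO 1 alone above WT. Etv1 lay higher in each DMSO library, at 68.9, 77.9 and 67.8 against 54.4 and 63.7 CPM (0.29 ± 0.16, adjusted p = 0.452). The ERK phosphatase gene Dusp6 was read at 136, 112 and 94.7 against 131 and 139 CPM (-0.24 ± 0.12, adjusted p = 0.365). In Dusp6 the spread was within the DMSO group: DMSO 1 lay between the WT libraries and DMSO 3 was the lowest.

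The Sprouty genes, feedback inhibitors of receptor signalling, were not called. Spry1 was read at 53.8, 54.7 and 56.5 against 54.7 and 51.4 CPM, a difference of 0.05 ± 0.09 (SE). Spry2 was read at 64.9, 66.8 and 65.2 against 69.8 and 71.3 CPM, a difference of -0.10 ± 0.10, and Spry4 at 14.5, 16.2 and 13.46 against 15.1 and 15.6 CPM, a difference of -0.03 ± 0.12. Spry2 was slightly lower in each DMSO library, and Spry1 and Spry4 overlapped. Adjusted p for the 3 genes was 0.873, 0.733 and 0.991. HET stood apart in Spry4, at 24.8 and 22.4 CPM, and was called against WT (adjusted p = 0.0206). Dusp4, another phosphatase, was higher in all DMSO libraries with means of 42.6 ± 6.48 (SD, n = 3) against 33.4 ± 3.52 CPM (SD, n = 2, adjusted p = 0.372). Flrt3, a membrane protein that joins FGF receptors, was lower in all 3, at 9.71, 10.7 and 9.69 against 12.5 and 16.1 CPM (adjusted p = 0.158). The 28 members that were not called ran from -0.53 (Egr2) to 0.37 (Dusp4). DMSO lay above both WT libraries in 6 of the 29 (20.7%) and below in 5 (17.2%), near the 14.6% and 16.2% of all genes.

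Of 26 ligands, receptors and binding proteins of the FGF family 16 could be tested, and 1 rose and 0 fell (6.25%, against 2.1% of all genes). Fgfbp1, a secreted protein that releases FGF from the matrix, was read at 44.9, 48.6 and 42.9 CPM in DMSO and 30.2 and 31.9 in WT, and at 30.4 and 26.8 in HET. Its rise of 0.56 ± 0.14 (SE, adjusted p = 0.0452) was lost without any 1 of the 5 libraries (adjusted p of up to 0.362). The receptor genes did not pass: Fgfr1 stood at 189, 181 and 166 against 214 and 189 CPM (-0.18 ± 0.09, adjusted p = 0.403) and Fgfr2 at 95.2, 89.95 and 100.0 against 101 and 99.2 (-0.08 ± 0.08, adjusted p = 0.739). The counts are per gene and cannot single out the Fgfr2b isoform. Fgf10, the main mesenchymal ligand of the gland, was read at 20.7, 25.9 and 25.3 CPM in DMSO and 23.6 and 23.6 in WT, an overlap with a difference of 0.04 ± 0.17 (SE). HET was higher, at 41.7 and 29.6 CPM, so that with HET in place of WT the difference turned to -0.56 (adjusted p = 0.0481). The mesenchymal genes, too, summed to more in HET, at 4407 and 4014 CPM against 2818 and 2944 in WT. Fgf7, which uses the same receptor, overlapped at 5.57, 7.02 and 5.75 against 4.17 and 6.59 CPM.

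**Figure D3:**
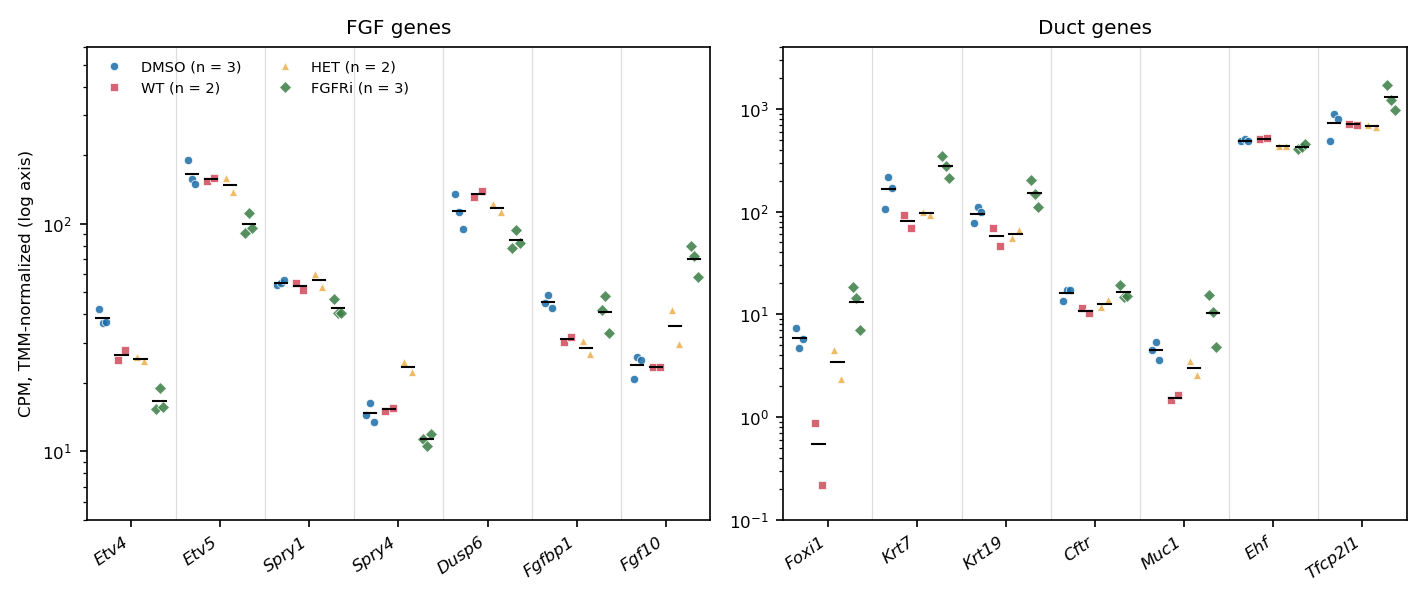
Levels of 7 FGF genes and 7 duct genes in each library, in TMM-normalized CPM on log axes, with the group mean as a black line. DMSO libraries lie above both WT libraries for Etv4, Fgfbp1, Foxi1, Krt7, Krt19, Cftr and Muc1, and the FGFRi libraries of Krt7 reach 212 to 349 CPM.

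Duct genes were higher in DMSO where they differed. Of 37 listed genes 32 could be tested, and 3, among them Foxi1 and Krt7, rose and 0 fell (9.38%, against 2.1% of all genes). The list median was 0.378, and was the same with Bsnd at its lower bound. In 16 of the 32 (50%) all DMSO libraries lay above both WT libraries (14.6% of all genes), and in 1, Elf3, all lay below (16.2%). The summed level of the list was 3241, 4068 and 3556 CPM in DMSO 1, 2 and 3 and 3245 and 3247 in WT, so that DMSO 1 was no higher than WT.

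Foxi1 (ENSMUSG00000047861), the transcription factor of ionocytes, which are proton- and chloride-transporting cells of ducts, was read at 7.32, 4.68 and 5.75 CPM in DMSO and 0.879 and 0.216 in WT. All DMSO libraries were above both WT libraries, and the rise was 3.24 ± 0.56 on the log2 scale (SE, adjusted p = 0.00550). It was lost without WT 2 (adjusted p = 0.0855). HET lay between, at 4.54 and 2.33 CPM, and the difference of DMSO from HET was 0.73 (adjusted p = 0.328). Ascl3, another factor of these cells, stood at 2.71, 1.04 and 1.48 against 0.439 and 0.216 CPM (adjusted p = 0.161). Bsnd, a chloride channel subunit of ionocytes, had 21 counts in DMSO, all of them in DMSO 1 and 2, and 0 in WT, at least 4.42-fold higher when WT is set to 3 counts summed over its libraries (adjusted p = 0.108). Foxi2, a relative of Foxi1 named after its values were seen, had 28 counts in DMSO and 0 in WT, at least 6.76-fold higher (adjusted p = 0.0148). In Foxi2 all 3 DMSO libraries had reads, at 1.11, 0.884 and 0.657 CPM, and so had HET, at 1.21 and 0.482. The carrier genes Rhcg and Slc26a4 had too few reads, and Atp6v1b1, a proton pump subunit, overlapped at 31.5, 41.6 and 42.7 against 41.97 and 40.5 CPM.

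Krt7 (ENSMUSG00000023039), a simple keratin of ducts, was read at 106, 219 and 169.9 CPM in DMSO and 93.5 and 69.7 in WT. DMSO 1 lay just above WT 1 and DMSO 2 was the highest, and the rise was 1.02 ± 0.24 (SE, adjusted p = 0.0379). Krt7 no longer passed after the removal of DMSO 2, DMSO 3, WT 1 or WT 2 (adjusted p of up to 0.351). With DMSO 2, the male library, as the only DMSO library and assumed to vary like the other groups, Krt7 was higher by 1.41 (adjusted p = 4.13e-04).

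Further duct genes had separate groups without passing. Krt19, another simple keratin, was read at 77.4, 111 and 98.3 against 69.2 and 46.6 CPM (log2 difference 0.73 ± 0.22, adjusted p = 0.116). Cftr, the chloride channel of duct cells, was read at 13.4, 17.1 and 17.4 against 11.4 and 10.3 CPM (0.56 ± 0.16, adjusted p = 0.0839). Muc1, an apical mucin, was read at 4.46, 5.36 and 3.61 against 1.46 and 1.62 CPM (1.58 ± 0.45, adjusted p = 0.0918). In all 3, HET means of 60.4 ± 7.53, 12.7 ± 1.37 and 3.03 ± 0.643 CPM (SD, n = 2) lay between those of WT and DMSO. Tspan8 and Wfdc2, which mark duct epithelium, had adjusted p of 0.0775 and 0.0839, and Kcnn4, a potassium channel, 0.332.

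The broader epithelial factors of the duct list were not called. The ETS factors Ehf and Elf5 overlapped, at 482, 509 and 481 against 504 and 519.6 CPM and 115, 124 and 132 against 123 and 133 CPM, with log2 differences of -0.06 ± 0.08 and -0.05 ± 0.10 (SE). Tfcp2l1, a factor of striated duct cells, was read at 490.2, 894 and 803 CPM in DMSO and 719 and 704 in WT: DMSO 1 was below both WT libraries and DMSO 2 and 3 above. Krt18 was higher in each DMSO library at 521, 566 and 479.9 against 450.0 and 458 CPM (adjusted p = 0.404), and its partner Krt8 overlapped at 521, 594 and 475 against 469 and 481 (adjusted p = 0.561). In FGFRi, which shares its genotype label with DMSO, 12 duct genes rose and 9 fell against WT, and 7 rose and 8 fell against DMSO. Over all genes 9.65% rose and 12.3% fell against WT, and 10.7% and 12.3% against DMSO. Krt7 stood at 349, 278 and 212 CPM and Foxi1 at 18.3, 14.4 and 7.03 CPM there.

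Markers of other cell types were read beside these duct genes. The 17 basal epithelial genes had 0 called members by edgeR, 8 at an unadjusted p under 0.05 (47.1%, against 14.2% of all genes) and 1 by DESeq2. In 7 of the 17 (41.2%) all DMSO libraries lay below both WT libraries (16.2% of all genes). Krt5 and Krt14, keratins of basal cells, spread more within the groups than between them, at 22.9, 60.5 and 194 against 82.8 and 14.8 CPM and 60.5, 92.2 and 197 against 137 and 63.7. Their part in the duct result was not tested. Without DMSO 3 and WT 1, the libraries high in stratified genes, the median was 0.30 in the duct list and 0.29 in the amino acid stress list. That fit leaves 1 WT library, so its calls cannot be set against those of the main fit. Without WT 1 alone the medians were 0.27 and 0.29, and without WT 2 alone they were 0.34 and 0.29. Skeletal muscle genes summed to 34.5, 86.4 and 112 CPM in DMSO and 25.2 and 18.4 in WT. Of 16 tested muscle genes 0 were called by edgeR, 12 had an unadjusted p under 0.05 (75%, against 14.2% of all genes) and 4 were called by DESeq2. Their median log2 difference was 2.68. In 10 of the 16 (62.5%) all DMSO libraries lay above both WT libraries (14.6% of all genes). With library totals edgeR called 14 of the 16 as higher, and with no low-count filter 14 of 18. Myod1 and Myog, which define muscle cells, were at or under 2.96 CPM in all DMSO libraries and at 0 in WT 2.

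End bud genes moved in both directions. Of 20 listed autosomal genes 19 could be tested, 3 rose and 2 fell (26.3%, against 2.1% of all genes), and 3 of these 5 are close copies of each other. Kit, the receptor for stem cell factor that marks end bud progenitors, was read at 114, 118 and 96.7 CPM in DMSO and 74.7 and 78.2 in WT. Every DMSO library was above both WT libraries, with a rise of 0.53 ± 0.11 (SE, adjusted p = 0.0145) that was lost without DMSO 2, WT 1 or WT 2 (adjusted p of up to 0.206). HET and HOM, at 76.5 and 78.4 and 77.2 and 79.02 CPM, lay with WT. Bpifa2, a secreted salivary protein, was read at 51.3, 125 and 41.4 against 9.89 and 11.9 CPM, a rise of 2.79 ± 0.43 (SE, adjusted p = 0.00188). DMSO 2 was the highest, and HET, at 44.1 and 23.1 CPM, lay between. The Bpifa2 call was lost without WT 1 (adjusted p = 0.0633). Sox10, an end bud factor, was lower in each DMSO library at 180.2, 163 and 145 against 189 and 186 CPM (adjusted p = 0.459), and the water channel Aqp5 overlapped at 88.98, 83.1 and 62.1 against 64.01 and 60.96.

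The Dcpp genes, which encode demilune cell and parotid proteins of saliva, are neighbours on chromosome 17 with nearly the same sequence. Their promoters are shown because the 3 genes went in different directions. The stretches are from the same RefSeq windows (GRCm38.p6, plus strand, 5′ to 3′), with capitals for bases of Dcpp2 and Dcpp3 that are not aligned to an equal base of Dcpp1.
Dcpp1, chr17:23880781-23880875: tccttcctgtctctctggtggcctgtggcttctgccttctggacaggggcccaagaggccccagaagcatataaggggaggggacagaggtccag
Dcpp2, chr17:23898622-23898716: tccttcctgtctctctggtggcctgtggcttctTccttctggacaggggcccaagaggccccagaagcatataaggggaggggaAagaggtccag
Dcpp3, chr17:23917360-23917453: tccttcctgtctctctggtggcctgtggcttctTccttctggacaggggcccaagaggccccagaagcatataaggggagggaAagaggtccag
Over the whole window, Dcpp2 and Dcpp3 are identical to Dcpp1 at 97.0% and 97.6% of aligned bases. Of their own 50-base transcript stretches, 46.5%, 44.2% and 45.8% also occur in another gene for Dcpp1, Dcpp2 and Dcpp3, so reads may be split between the copies and each level is uncertain.

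Dcpp3 was read at 0.478, 0.260 and 0.328 CPM in DMSO and 77.3 and 91.00 in WT, and its log2 change was -8.00 ± 0.24 (SE, adjusted p = 9.79e-12). Dcpp1 was read at 14.8, 14.6 and 18.1 against 54.2 and 69.9 CPM and fell by 1.98 ± 0.21 (adjusted p = 5.03e-05). Dcpp2 was read at 7.32, 5.15 and 8.04 against 0.293 and 0.324 CPM and rose by 4.41 ± 0.63 (adjusted p = 9.32e-04). In each gene the groups were separate, and each call held without any 1 of the 5 libraries (adjusted p of up to 0.0384). The untreated groups of the cross lay together in Dcpp3: HET stood at 78.7 and 68.6 CPM and HOM at 62.5 and 54.3. FGFRi, at 0.367, 0.108 and 0 CPM, lay with DMSO.

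**Figure D4:**
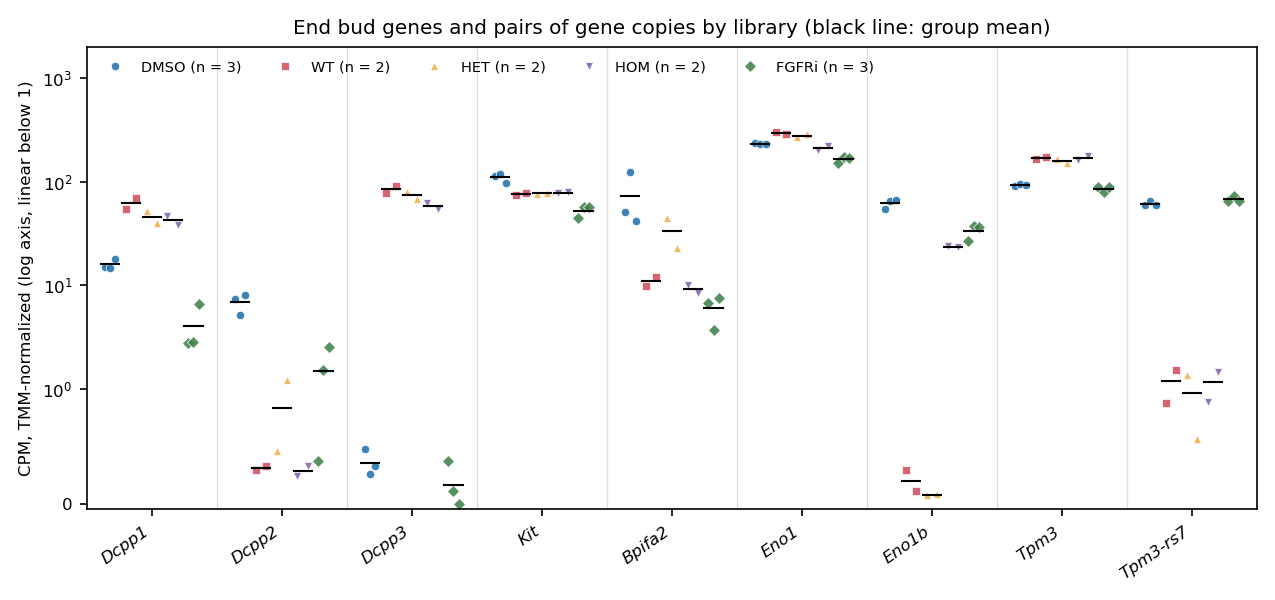
Levels of 5 end bud genes and of 2 pairs of gene copies in all 12 libraries, in TMM-normalized CPM on an axis that is logarithmic above 1 and linear below, with the group mean as a black line. Dcpp3 lies at 54.3 to 91.0 CPM in the 6 untreated libraries and at 0 to 0.478 CPM in the 6 DMSO and FGFRi libraries, while Kit and Bpifa2 have FGFRi as the lowest group.

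Other groups of genes that respond to the state of the culture were read in the same fit. Of 15 genes of the hypoxia response 2 rose and 0 fell (13.3%, against 2.1% of all genes). Vegfa, a growth factor for vessels, was read at 43.1, 51.1 and 48.9 against 30.98 and 29.4 CPM (0.67 ± 0.11, adjusted p = 0.00409). HET stood at 44.6 and 48.2 CPM, and the difference of DMSO from HET was 0.05 (adjusted p = 0.833). Pfkfb3, a regulator of glycolysis, was read at 5.25, 3.90 and 5.58 against 1.98 and 2.16 CPM (adjusted p = 0.0232). Its difference from HET was 0.32 (adjusted p = 0.489), and with HET in place of WT 0 of the 15 hypoxia genes were called. Of 12 tested targets of the oxidative stress factor NRF2, 2 rose (16.7%, against 2.1%): Gsta4, a glutathione transferase, at 96.8, 115 and 118 against 62.1 and 59.6 CPM (adjusted p = 3.28e-04) and malic enzyme Me1 at 31.4, 34.1 and 29.4 against 18.9 and 19.99 CPM (adjusted p = 0.00360). Hmox1 and Nqo1, the usual markers of that factor, overlapped. HET stood lower than WT in Gsta4, at 33.8 and 30.2 CPM. The Gsta4 call held without any 1 library, that of Vegfa was lost without WT 1 or WT 2 (adjusted p of up to 0.0907), that of Me1 without WT 1 (0.0980), and that of Pfkfb3 without DMSO 1, DMSO 3, WT 1 or WT 2 (up to 0.254).

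Of 12 heat shock genes 2 fell and 0 rose (16.7%, against 2.1% of all genes). With library totals as the scaling 0 were called, and the list median turned from -0.11 to 0.04. Hspa8, a constitutive chaperone, was read at 578, 501 and 529 CPM in DMSO and 975 and 1054 in WT, a log2 change of -0.92 ± 0.10 (SE, adjusted p = 5.11e-05). It shares 38.6% of its 50-base stretches with other genes or pseudogenes, so its level is uncertain. HET and HOM lay with WT, at 990.2 and 904 and 957 and 961 CPM, and FGFRi with DMSO, at 479, 544 and 526. Hsph1, a chaperone partner, was read at 35.97, 31.7 and 37.3 against 47.9 and 46.04 CPM (adjusted p = 0.0190, but up to 0.240 without DMSO 2, WT 1 or WT 2). Among 20 mitosis genes 0 were called by edgeR, 10 had an unadjusted p under 0.05 (50%, against 14.2% of all genes) and 4 were called as lower by DESeq2. In 10 of the 20 (50%) all DMSO libraries lay below both WT libraries (16.2% of all genes), Mki67 among them at 535, 494 and 450.0 against 584 and 718 CPM (adjusted p = 0.0694). The list summed to 2338, 2111 and 2008 CPM in DMSO and 2435 and 2725 in WT.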

How the data were processed

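The authors' deposited table holds raw read counts per gene for 12 libraries, 6043701 to 18900097 in the 5 compared here; per the submitters' processing notes, bcl2fastq, STAR and GRCm39 were used. How reads were assigned to genes (program, strand, gene models) is not stated in the labels, so overlapping and antisense genes cannot be told apart. Symbols, gene types and chromosomes came from GENCODE M21 (GRCm38), in which 52489 of 52636 identifiers were found. Without molecular identifiers, intervals and floors cover counting error only.

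Genes were kept with edgeR's filterByExpr (count minimum 10, total minimum 15) and scaled by TMM. A quasi-likelihood model (edgeR 4.0.16, R 4.3.3) was fitted to all 12 libraries with 1 coefficient per group, because all groups then share 1 estimate of the spread (7 residual degrees of freedom). The threshold was an adjusted p under 0.05 over 15859 genes. Alternatives, whose effects are given in the closing section, covered scaling, the filter on low counts, the genes in the fit, the test (DESeq2 1.42.0, limma-voom 3.58.1), the libraries in the fit, a replicate block, sex and the control group.

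The gene lists and members were chosen with earlier results of these data known. Named genes were a panel of 36, every called member of the stress, synthetase, FGF and duct lists, up to 4 members of each other list in order of p, and, among called genes of at least 5 CPM in either group with no overlap, the 10 that rose and the 10 that fell most, leaving out retrogenes and clone names. Other list members and the gene copies were named after their values were seen. The calls of Eif2ak4, Foxi2 and Duox2 were not followed over the alternatives. Shared sequence is the share of a gene's 50-base transcript stretches found in another gene. Some listed genes enter the counts and are not reported here by name.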

Additional observations from a re-analysis of the deposited data

How the results depend on the processing

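The direction of the amino acid stress and duct calls did not change under any alternative: no member of either list was called lower in DMSO, and Trib3 and Chac1 kept their calls throughout. Counts are given as all genes called between DMSO and WT (278), amino acid stress (7), FGF target (1) and duct genes (3), HET against WT (165) and FGFRi against WT (2912), where they moved by over 1.5 times. With library totals, 0 FGF target and 8 duct genes and 1259 genes in FGFRi were called; this scaling moved the log2 change of the median gene by 0.148, and its split was 166 higher and 48 lower of 214, against 142 and 136. Scaling to pan-epithelial genes gave 183, 1 duct gene, 280 in HET and 6911 in FGFRi. No low-count filter gave 614, 12 amino acid stress, 12 duct genes and 489 in HET. Limma-voom gave 1 duct gene, as did a fit of the compared groups only. Sex as a covariate gave 398 (131 higher, 267 lower), 0 FGF target and 5 duct genes and 610 in FGFRi. Only the DMSO group held both sexes, so for DMSO against WT that fit in effect sets DMSO 2 against WT. A 2-fold minimum gave 102, 2 amino acid stress, 0 FGF target genes, 63 in HET and 748 in FGFRi. HET in place of WT gave 986 (395 higher, 591 lower) and 5 FGF target genes (1 higher, 4 lower). That setting also turned Fgf10 to -0.56 (adjusted p = 0.0481) and Lgals7 to 1.23 (adjusted p = 0.0112). In it 12 of 18 mesenchymal genes were called lower in DMSO and 0 higher. The mean of WT and HET gave 816, 12 amino acid stress, 2 FGF target (1 higher, 1 lower) and 8 duct genes. The male DMSO library alone gave 445 (142 higher, 303 lower), 4 amino acid stress, 0 FGF target and 6 duct genes. Without DMSO 3 and WT 1, an alternative chosen after seeing the data, 66, 2, 0 and 1 were called. Leaving out 1 library at a time gave 73 to 285 genes in all, 2 to 6 amino acid stress, 0 to 1 FGF target and 0 to 6 duct genes, 16 to 21 in HET and 1210 to 1355 in FGFRi. Of the 73 called without WT 1 and the 73 without WT 2, 69 and 72 were among the 278. With the replicate number as a block, 182 genes and 4 amino acid stress genes were called, with 1 FGF target and 2 duct genes, 142 in HET and 2261 in FGFRi; the deviations of same-numbered libraries correlated at r = -0.112 for DMSO 1 and WT 1 and 0.0274 for DMSO 2 and WT 2, and at -0.147 to 0.255 over all 21 such pairs, above 0.1 in 2 (DMSO 1 with HET 1, DMSO 2 with HET 2). The numbers were therefore not taken to pair the libraries. The cause of each shift was not tested, apart from fewer libraries or genes where the setting removes them. Depth limits genes of a few counts, such as Gdf15, Bsnd and Foxi2, most.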

Other observations

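Some of the largest differences between DMSO and WT lay outside the stress and duct lists. Cnmd, a cartilage glycoprotein that restrains vessels, was read at 20.2, 28.1 and 24.96 CPM in DMSO 1, 2 and 3 and 2.86 and 5.62 in WT 1 and 2, a rise of 2.60 ± 0.33 (SE, edgeR adjusted p = 2.84e-04), while HET and HOM lay with WT at 2.80 and 3.38 and 3.92 and 4.01. Col2a1, the main collagen of cartilage, went the other way, at 4.30, 2.13 and 1.48 against 18.4 and 15.1 CPM (log2 change -2.75 ± 0.25, edgeR adjusted p = 6.82e-06). Duoxa1, which matures the peroxide-producing dual oxidases, rose to 8.28, 5.62 and 9.69 from 2.86 and 1.84 CPM (edgeR adjusted p = 0.00839, lost without WT 2). Its difference from HET was 0.76 on the log2 scale (edgeR adjusted p = 0.123). Its partner Duox2 stood at 2.39, 1.46 and 1.81 against 0.366 and 0 CPM (edgeR adjusted p = 0.0445), with HET at 1.67 and 0.643. Fbp1, an enzyme of glucose synthesis, was read at 8.12, 4.79 and 7.22 against 1.68 and 0.757 CPM (edgeR adjusted p = 0.00658, lost without WT 2), and Acp5, an acid phosphatase, at 7.64, 7.54 and 8.37 against 2.64 and 2.38 (edgeR adjusted p = 0.00278). Among the falls, Cdhr1, a cadherin of photoreceptors, stood at 5.89, 3.33 and 6.73 against 20.6 and 22.4 CPM, with HET between at 11.7 and 11.9. Ppp1r3e, a glycogen-targeting phosphatase subunit, stood at 3.02, 2.91 and 3.12 against 14.4 and 11.1, Gnpda1, an enzyme of glucosamine metabolism, at 1.91, 1.40 and 2.46 against 5.79 and 6.81, and Hdac9, a histone deacetylase, at 0.796, 1.46 and 2.79 against 7.03 and 3.999 CPM. Of these calls that of Hdac9 was also lost without DMSO 1, DMSO 2 or WT 1 (edgeR adjusted p of up to 0.436).

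Several of the steepest differences were in genes with near-identical copies, whose reads the counting could split. Of the 278 called genes 56 shared at least 10% of their 50-base stretches with another gene, and 32 of the 102 with at least 2-fold differences did. The share over all tested genes was not computed, so these counts cannot show an excess. Eno1b, a copy of the enolase gene Eno1 that shares 85.2% of its stretches, was read at 54.9, 64.5 and 66.8 CPM in DMSO and 0.293 and 0.108 in WT, with HET at 0.0757 and 0.0804, HOM at 23.9 and 23.1 and FGFRi at 26.6, 37.5 and 36.6. Eno1 itself stood at 238, 230.2 and 231 against 305 and 291 CPM. Tpm3-rs7, a copy of the tropomyosin gene Tpm3, was read at 58.9, 64.4 and 60.1 against 0.879 and 1.51 CPM, and Tpm3 at 90.6, 95.2 and 92.8 against 165 and 172. In DMSO both copies were higher and both parent genes lower than in WT. Eif3j2 was read at 10.03, 10.5 and 12.5 against 0.439 and 0.216 CPM and, unlike the first pair of copies, was as high in HET, at 11.8 and 9.25. Hmga1b stood at 20.9, 36.5 and 38.7 against 0.732 and 0.973 CPM. Histone gene Hist1h2ba had 531 counts in DMSO and 0 in WT, at least 137-fold higher against 3 counts over the WT group. Hist1h4m had 1 count in DMSO and 240 in WT, an inverse ratio of 331 with an exact 95% interval from 58.8 to 13129. With HET in place of WT, Hist1h4m was not called (log2 difference -1.06, edgeR adjusted p = 0.737), and Hist1h2ba was (10.8, edgeR adjusted p = 6.61e-04). Hist1h4i was read at 62.1, 58.9 and 86.5 against 19.5 and 18.5 CPM, the ribosomal protein gene Rpl29 at 23.4, 22.3 and 22.2 against 137 and 159, and the splicing gene Cwc22 at 72.4, 78.7 and 37.4 against 292 and 243. By chromosome, the called share was highest on chromosome 17, which holds the Dcpp genes, at 28 of 654 tested genes (4.28%), and lowest on chromosome 8, at 4 of 710 (0.563%).

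The lists of other cell types and pathways held 0 or 1 called gene each. Of all genes, 2.1% were called and 14.2% had an unadjusted p under 0.05 by edgeR. In lists this short, 1 called gene exceeds the called share of all genes. Of 6 neutrophil genes Mpo, a granule peroxidase, rose, with 55 counts in DMSO and 1 in WT (ratio 39.9, exact 95% interval 6.86 to 1603). Of 10 Schwann cell genes Fabp7, a lipid carrier of glia, fell, at 3.82, 2.13 and 4.76 against 9.67 and 8.43 CPM (edgeR adjusted p = 0.00539). Of 14 pan-epithelial genes Spint1, a protease inhibitor, rose, at 78.2, 74.6 and 64.4 against 51.6 and 46.9 CPM (edgeR adjusted p = 0.00463). The calls of Mpo and Fabp7 were lost without WT 1 and that of Spint1 without WT 2 (edgeR adjusted p = 0.194, 0.0963 and 0.122). Lists with 0 called genes by edgeR were 22 S phase genes (1 at an unadjusted p under 0.05, 0 by DESeq2), 19 cholesterol genes (2 and 0), 13 macrophage genes (1 and 1), 12 neuron genes (1 and 0), 12 endothelial genes (1 and 0), 19 stratified epithelium genes (0 and 0), 4 erythroid genes (0 and 0) and 5 targets of the aryl hydrocarbon receptor (1 and 1). The neuron list changed with several settings. With no low-count filter 4 of 15 genes were called lower. Without DMSO 2 its median turned from -0.39 to 0.16, and without DMSO 1 it was -0.81. With sex as a covariate 9 of 12 genes were called lower (median -1.63), and with the male DMSO library alone the median was -1.54. Only the DMSO group held both sexes, so the sex covariate and the male library alone in effect set DMSO 2 against WT. The neuron list summed to 83.1 CPM in DMSO 2, to 300 and 235 in DMSO 1 and DMSO 3, and to 285 and 203 in WT.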
